A study of Drosophila melanogaster with 3 samples.

Results

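The 10 ecdysone response genes described here are EcR, usp, br, Eip74EF, Eip75B, Eip78C, ftz-f1, Hr3, Hr4 and Hr39. They were taken from a fixed list of names, which was chosen with earlier results of these data known. All 10 matched a gene among the 13945 protein-coding genes of the Ensembl annotation. The data are ChIP-seq peaks of HLH54F, a basic helix-loop-helix (bHLH) protein known from the caudal visceral mesoderm, in whole Drosophila melanogaster embryos. There was 1 group of 3 biological replicates: mixed-sex embryos of 0 to 24 h from a transgenic line that stably expressed HLH54F with GFP fused to its C terminus, sheared by sonication to 200 to 800 bp. The descriptions name an anti-GFP antibody, and the antibody field names HLH54F. Every library carried the tagged transgene, and no untagged group or second condition was analysed here. Whole embryos pool all cell types and stages, so a peak cannot be assigned to a tissue or an age.

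Ecdysone is the steroid hormone that times embryonic morphogenesis, moulting and metamorphosis in flies. It binds the ecdysone receptor EcR, which works as a heterodimer with its nuclear receptor partner Usp. The bound receptor switches on early genes that encode transcription factors (br, Eip74EF, Eip75B), then early-late receptors (Eip78C, Hr3, Hr4), and Hr3 in turn activates the competence factor ftz-f1. In the embryo a hormone pulse in mid-development is needed for germ band retraction, head involution and cuticle formation.

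The authors deposited a pooled list of 23689 peaks, called on all 3 replicates together and holding weak background peaks, and an optimal list of 4246 peaks that passed the irreproducible discovery rate (IDR) procedure. The optimal peaks were the pooled peaks of highest signal, from 92.7 upwards. Signal is the authors' own value per peak, with no scaling given in the sources used here. It is used below only to rank and describe peaks within a list. A peak was counted for a gene when its summit lay in the gene body or up to 2 kb upstream. Coordinates are on dm6.

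Within 50 bp of each summit the sequences below show the DNA under 7 of the peaks, chosen for their signal or their motifs, at 4 of the genes. All of them are intronic, on the plus strand, read 5′ to 3′ from the release 6 RefSeq genome. Capitals mark matches on either strand to the motifs searched. These were the E-box CANNTG bound by bHLH proteins, the GAGA factor core GAGAG, the nuclear receptor core AGGTCA, the DREF site TATCGATA and the M1BP site GGTCACACT. A further pair was added after the sequences had been read, namely ATGGCGCC, which resembles the core of the CTCF site, and the letters CCCTAATA. Where matches touch or overlap, the capitals run together.

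Hr4, strongest peak, with none of the motifs within 50 bp (chrX:1951875-1951975): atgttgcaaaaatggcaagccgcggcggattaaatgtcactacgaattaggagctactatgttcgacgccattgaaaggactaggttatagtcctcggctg
Hr4, next strongest, with 3 adjoining E-boxes (chrX:1947709-1947809): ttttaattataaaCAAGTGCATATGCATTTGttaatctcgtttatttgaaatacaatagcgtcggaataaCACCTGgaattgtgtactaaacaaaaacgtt
Hr4, with 3 E-boxes, among them CAGCTG (chrX:1953079-1953179): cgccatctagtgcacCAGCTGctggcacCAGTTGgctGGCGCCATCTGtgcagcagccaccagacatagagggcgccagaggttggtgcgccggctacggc
br, its single optimal peak (chrX:1618822-1618922): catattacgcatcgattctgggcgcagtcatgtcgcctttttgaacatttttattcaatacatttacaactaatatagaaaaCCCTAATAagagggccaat
Eip75B, strongest intronic peak (chr3L:18019762-18019862): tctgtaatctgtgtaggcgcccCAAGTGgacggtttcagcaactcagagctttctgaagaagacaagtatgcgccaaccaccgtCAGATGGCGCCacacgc
Eip75B, weakest optimal peak (chr3L:17988276-17988376): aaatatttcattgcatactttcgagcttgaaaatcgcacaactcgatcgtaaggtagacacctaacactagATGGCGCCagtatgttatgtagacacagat
ftz-f1, strongest peak (chr3L:18786762-18786862): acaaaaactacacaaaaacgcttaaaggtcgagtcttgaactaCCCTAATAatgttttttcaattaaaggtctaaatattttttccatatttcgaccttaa

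Across the 10 genes, 168 pooled peaks were found, of which 27 were optimal, and the optimal ones lay mainly deep in introns. Of the 27, 23 lay in an intron and over 500 bp from any start of their own gene, 3 lay within 500 bp of an own start, and 1 lay upstream of Hr4. The distance to the nearest own start had a median of 5819 bp and a range of 6 to 22000 bp, and 16 peaks were over 5 kb away. Signals of the 27 ran from 94.1 to 645 with a median of 191, against a median of 154 over all 4246 optimal peaks. The other 141 pooled peaks had signals from 27.9 to 89.0, and 6 of them overlapped an optimal peak.

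At least 1 optimal peak was found at 8 of the 10 genes, and at least 1 pooled peak at all 10. Over all protein-coding genes 30.6% had an optimal and 67.3% a pooled summit in the same window. Most members are long, however, and long windows hold peaks more often. Among the 904 protein-coding genes whose window was at least as long as that of Hr39 (24.4 kb, the shortest of the members after usp), 53.3% had an optimal and 96% a pooled summit. The 9 members of that length are part of the 904, and 7 of these 9 had an optimal peak. The members had 0.465 optimal and 2.89 pooled peaks per 10 kb of window. Over the 904 long genes these densities were 0.227 and 1.60, and over all protein-coding genes 0.489 and 2.25. With 10 genes chosen by name, these shares and densities are descriptions and were not tested.

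**Figure D1:**
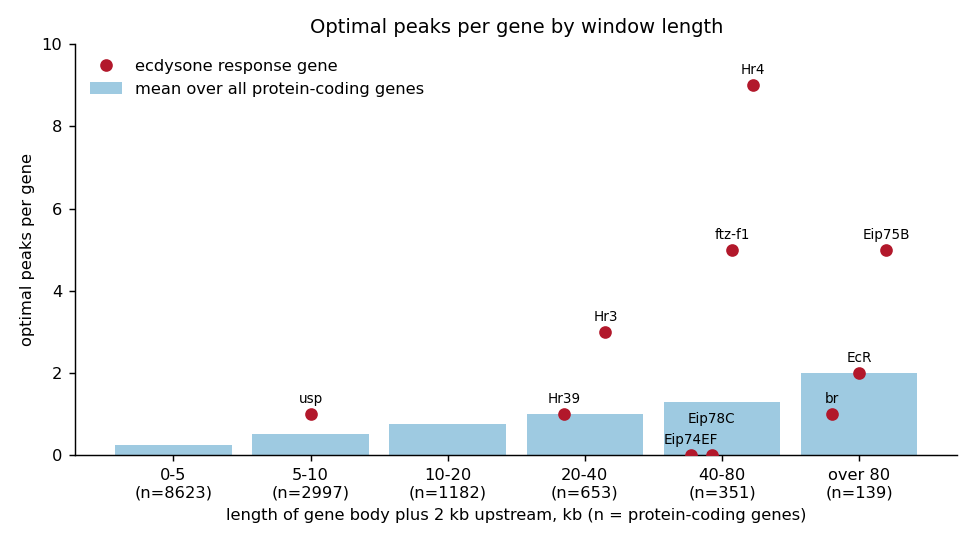
Number of optimal peaks per gene (vertical axis) by length of the gene body plus 2 kb upstream in kb (horizontal axis); points are the 10 ecdysone response genes and bars the mean over all protein-coding genes of that length. Hr4 has 9 optimal peaks and ftz-f1 5, above the bar for 40 to 80 kb at 1.31, whereas Eip74EF and Eip78C in the same length class have 0.

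Counts of strong peaks were alike in the 3 replicates, and counts over the whole relaxed lists were not. Among the 4246 strongest peaks of each replicate, called its top peaks here, 28, 28 and 29 summits fell at the members in replicates 1, 2 and 3 (28.3 ± 0.577, SD, n = 3), at 9, 8 and 8 genes. These were 0.659%, 0.659% and 0.683% of the top peaks, whose number was set equal. The genes differed between replicates, and so did the counts per gene. In replicates 1, 2 and 3, Eip74EF had 1, 2 and 0 of these summits, Hr39 1, 0 and 1, and Hr4 10, 8 and 11. The whole lists of 30000, 30000 and 24914 peaks held 184, 227 and 132 at the members (181 ± 47.6, SD, n = 3), or 0.613%, 0.757% and 0.530%. All 3 sets of top peaks covered the summits of 22 of the 27 optimal peaks (81.5%, with a 95% Wilson interval of 63.3 to 91.8%), while 4 summits were covered in a pair of replicates and 1 in none. Over all optimal peaks the first share was 66.2%, and over those in the 904 long genes 62.6%. All 27 lay in a peak of every replicate's whole relaxed list, against 96.6% of all optimal peaks. The optimal list was made from these same replicates, so this support is not independent of the choice of peaks.

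**Figure D2:**
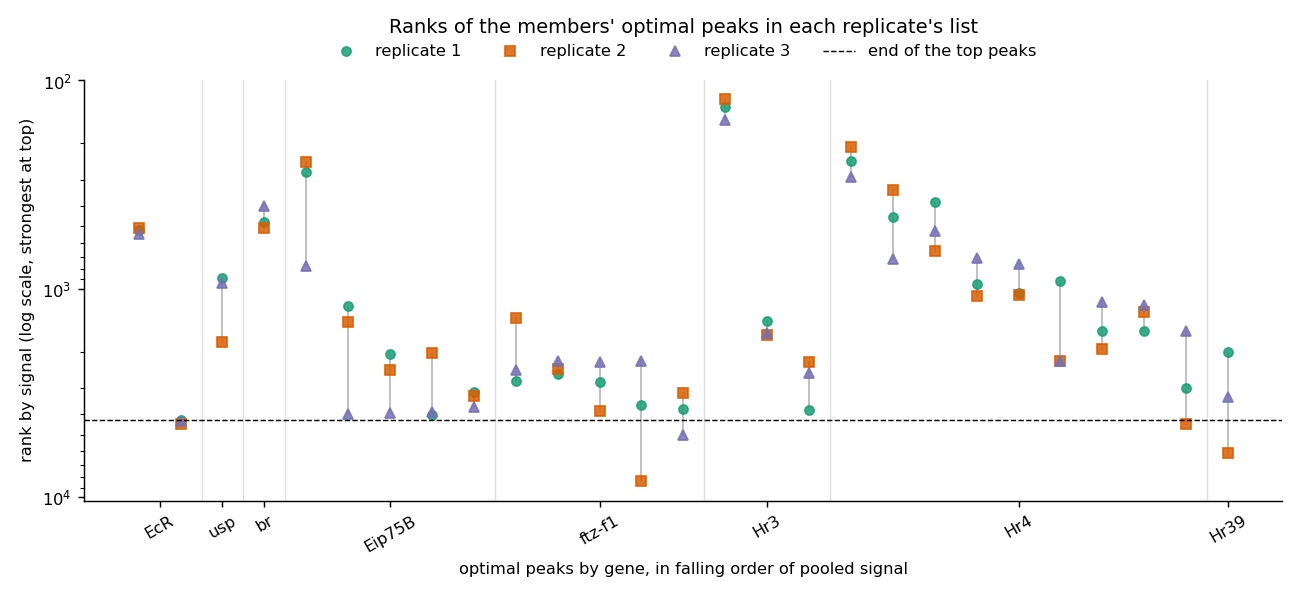
Rank by signal (vertical axis, log scale, strongest at the top) of each of the 27 optimal peaks in the lists of replicates 1, 2 and 3, grouped by gene (horizontal axis) in falling order of pooled signal; the dashed line marks the end of the 4246 top peaks of each list. The strongest Hr3 peak holds ranks 134, 123 and 155, while the ftz-f1 peak with ranks 3590, 8387 and 2221 has the widest spread.

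Few of the promoters of these genes had an optimal peak. Grouping annotated starts under 100 bp apart gave 34 promoters, of which 3 had an optimal and 13 a pooled summit within 500 bp. Over the 18925 promoters of all protein-coding genes, formed in the same way, the shares were 20.3% and 48.5%. These background shares were not matched for gene length or number of promoters, and the difference was not tested. The 3 promoters with an optimal summit were the downstream promoter of usp, the fifth promoter of Eip75B and the single promoter of Hr39. Counting the starts of any gene, 4 of the 27 optimal summits (14.8%, 95% Wilson interval 5.92 to 32.5%) lay within 500 bp of a start, against 35.6% (32.8 to 38.4%) of the 1136 optimal peaks in long genes and 60.9% (59.4 to 62.4%) of all optimal peaks. Among weaker pooled peaks the shares were 14.9% at the members, 17.7% in long genes and 29.8% overall. Wilson intervals cover counting error over peaks only, and neighbouring peaks of 1 gene are not independent.

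**Figure D3:**
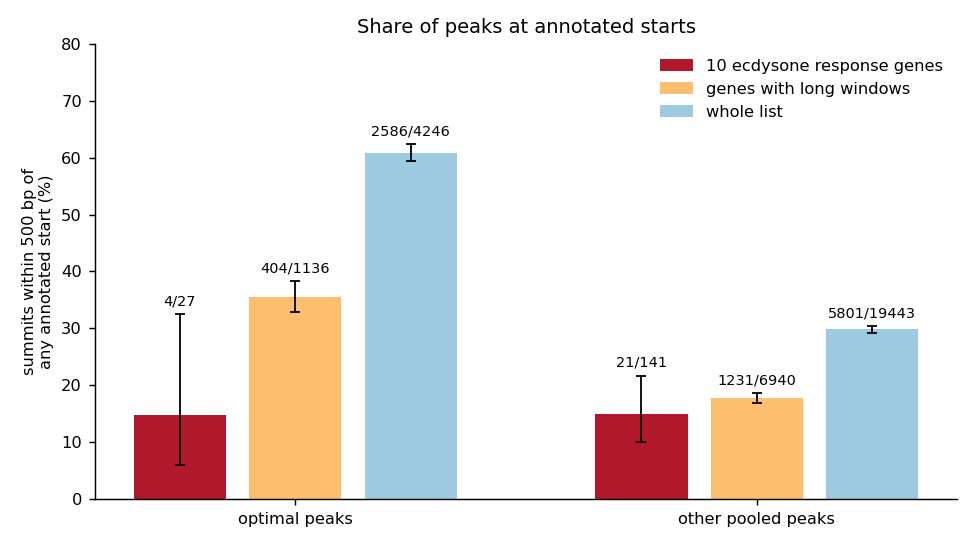
Percent of summits within 500 bp of any annotated start (vertical axis) for optimal and other pooled peaks; bars from left to right are the 10 ecdysone response genes, the 904 genes with long windows and the whole list, error bars are 95% Wilson intervals and the numbers give peaks near a start over all peaks. The members' optimal peaks stand at 14.8%, below the 35.6% of long genes and the 60.9% of the whole list.

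EcR, which encodes the hormone-binding subunit (2R, 6087873 to 6169087, minus strand), had 29 pooled peaks in a window of 83.2 kb, the second highest count among the 10 genes. Its 2 optimal peaks lay in intron 3 of its longest transcript. The stronger one (6151185 to 6151366, signal 336) was 5814 bp downstream of the second of 3 promoters, and a tRNA gene (tRNA:Asn-GTT-1-1) starts 1361 bp from its summit. It ranked 519, 508 and 546 in replicates 1, 2 and 3, a mean of 524 ± 19.6 (SD, n = 3). The weaker one (6133349 to 6133768, signal 104) lay 1637 bp upstream of the third promoter and ranked 4252, 4459 and 4292. Those ranks are just past the 4246 top peaks of each replicate, and it was the single optimal peak of the 10 genes found in none of the 3 top lists. None of the 3 EcR promoters had an optimal peak, and the strongest pooled summit within 500 bp of any of them had a signal of 52.7. Outside the optimal list, EcR peaks reached at most 54.9. Many of these weaker summits were nearer to the start of a tRNA gene than to any EcR start, some within 500 bp of it.

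The partner gene usp (X, 2038798 to 2042311, minus strand), at 3514 bp by far the shortest member, had 1 optimal and 2 other pooled peaks. The optimal summit (peak 2041310 to 2041729, signal 237) lay 208 bp upstream of the start of transcript usp-RA, in the 5′ UTR exon of the longer transcript, and 348 bp from the start of CG4313. Its ranks of 883, 1801 and 940 (1208 ± 514, SD, n = 3) placed it in the top peaks of every replicate, with replicate 2 lowest. A pooled peak of signal 65.5 beside it lay inside the same replicate peaks in replicates 1 and 2, and had no peak in replicate 3. The summit of this weaker peak was 135 bp from the start of CG4313 and 421 bp from the nearest usp start. The upstream usp promoter had a pooled peak of signal 49.8 within 500 bp. That summit lay 102 bp from the usp start and equally far from the start of Actn.

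Among the early genes, br, whose zinc-finger proteins direct metamorphosis, had 7 promoters over 91.7 kb and only 7 pooled peaks. The single optimal peak (X, 1618743 to 1618948, signal 372) lay in the first intron of the longest transcript, 3436 bp upstream of the sixth promoter. It held ranks of 480, 512 and 401 (464 ± 57.1, SD, n = 3), so all replicates placed it among their strongest peaks. The whole of br lies inside Mur2B, a gene of the opposite strand, of which a start was 717 bp from this summit. The remaining br peaks reached at most 67.5. The only pooled summit within 500 bp of a br promoter had a signal of 32.3. It lay between the sixth and seventh promoters and within 500 bp of both.

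Eip74EF, which encodes ETS-domain transcription factors, had no optimal peak and 14 pooled peaks. The strongest (3L, 17596919 to 17597338, signal 89.0), in the fifth intron, was the 4482nd pooled peak and thus just below the optimal list. Its ranks were 4299, 3415 and 20110, so replicate 3 placed it far lower than the others. The top peaks of replicates 1, 2 and 3 had 1, 2 and 0 summits in the window of Eip74EF. None of its 3 promoters had a pooled summit within 500 bp. Just outside the window, 2310 bp and 2515 bp upstream of the first start, lay 2 optimal peaks of signal 223 and 112 at the starts of the neighbours Vps60 (10 bp) and anchor (16 bp).

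Eip75B, the gene of a heme-binding nuclear receptor, is the longest member (3L, 17950953 to 18064696, minus strand) and had the most pooled peaks, 45, of which 5 were optimal. Only 5 of the 13945 protein-coding genes, Eip75B included, had at least 45 pooled summits in their window. The strongest peak (17999767 to 17999953, signal 407) lay directly on a promoter, with its summit 6 bp downstream of the start of transcript Eip75B-RC, the fifth of 7 promoters. It was the optimal summit nearest to an own start among the 27. Next came the peak of signal 191 whose sequence, with the E-boxes CAAGTG and CAGATG, is given above, 6220 bp downstream of the fourth promoter. The other 3 had signals of 142, 123 and 112 and lay 5380 to 11495 bp from the nearest start of Eip75B, and the noncoding RNA gene CR45921 starts 6485 bp from the weakest of them. The strongest peak outside the optimal list had a signal of 76.8. All 5 thus fell between 44.9 and 76.4 kb from the first start, inside introns 3 and 4 of the longest transcript, the promoter peak included.

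The ratio of the largest to the smallest rank number over the replicates had a median of 1.99 at the Eip75B peaks, against 1.86 over all optimal peaks. The promoter peak ranked 275, 246 and 775 (432 ± 297, SD, n = 3), and the peak of signal 191 ranked 1207, 1439 and 3978. The weaker peaks ranked 2046, 2444 and 3935 (signal 142), 4030, 2025 and 3897 (signal 123), and 3126, 3258 and 3678 (signal 112). Replicate 3 gave the lowest rank to 4 of the 5 peaks. Over all optimal peaks found in every list, replicate 3 was lowest for 35.7%. All 5 Eip75B peaks nevertheless stayed in the top peaks of every replicate.

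**Figure D4:**
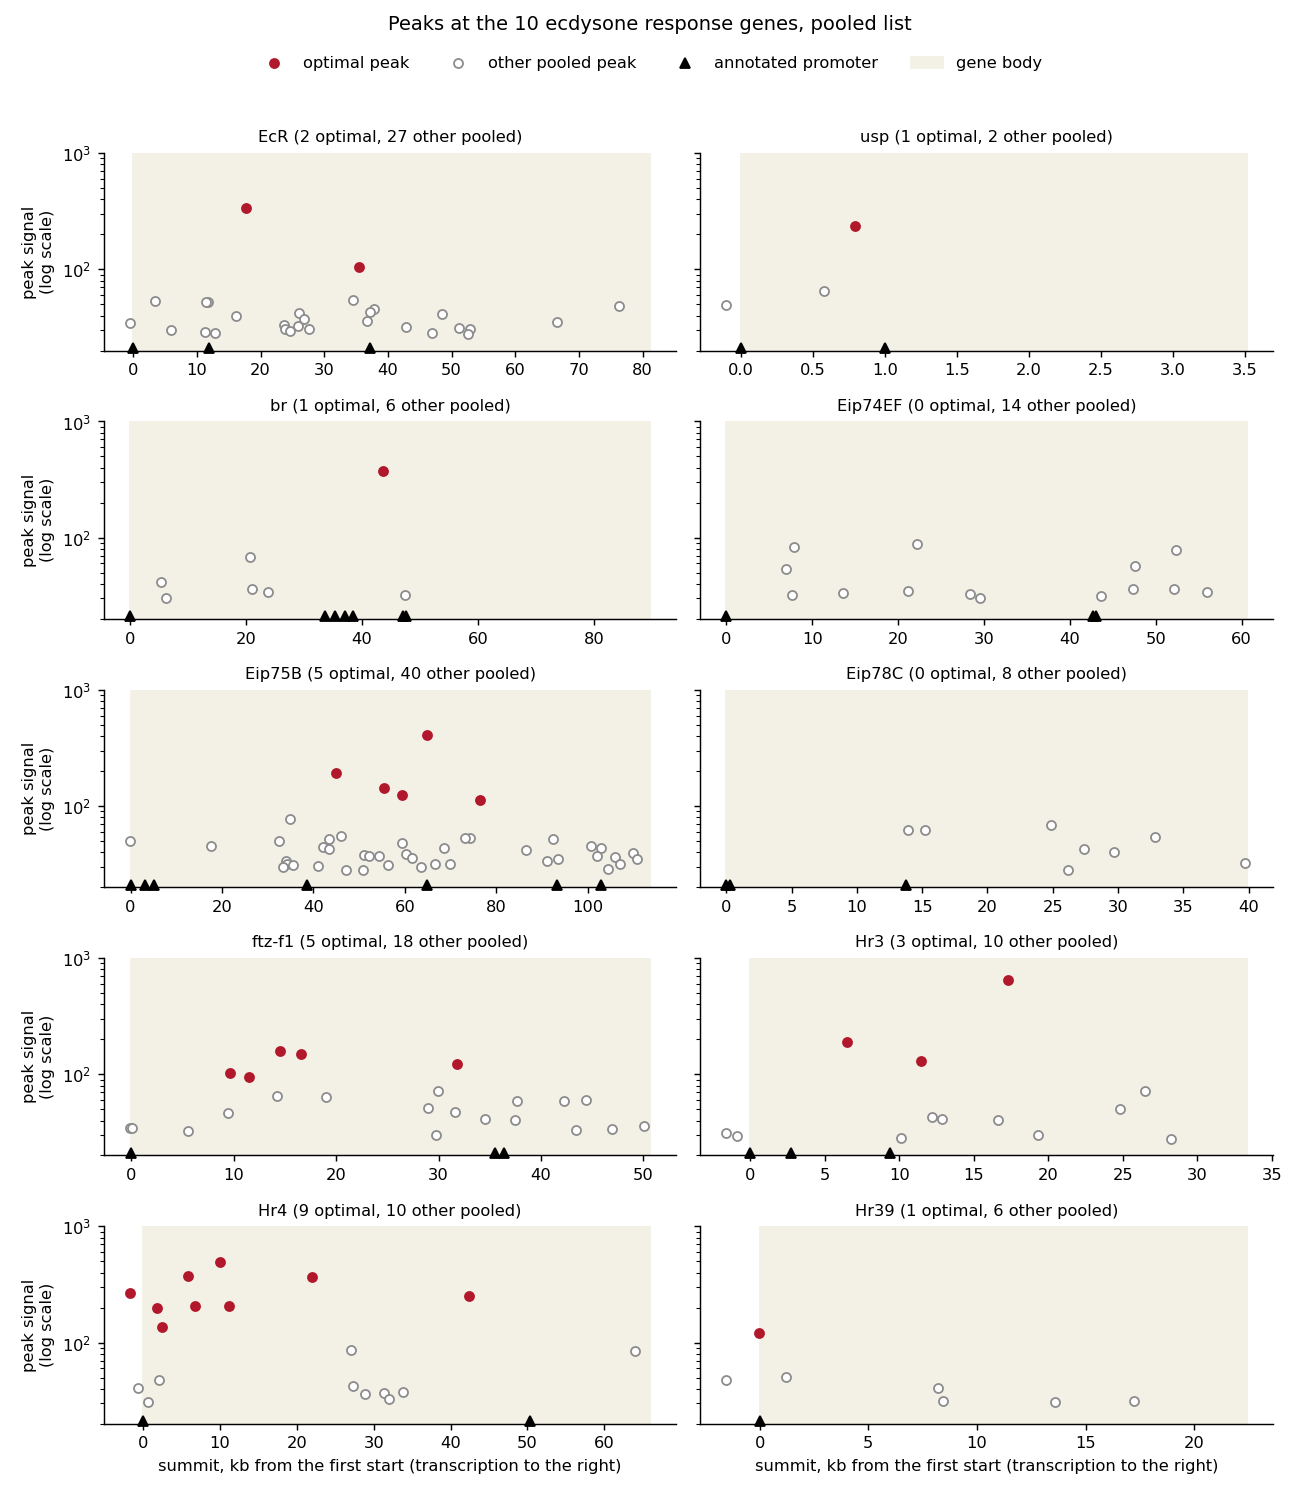
Peaks of the pooled list at each of the 10 genes: horizontal axis, summit position in kb from the first annotated start, with transcription to the right; vertical axis, the authors' peak signal on a log scale. Filled points are optimal peaks, open points other pooled peaks, triangles annotated promoters and shading the gene body; 8 of the 9 Hr4 peaks lie within 22.0 kb of its first start, and the 5 of Eip75B lie in the middle of the gene.

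Of the early-late receptors, Hr4 had the most optimal peaks of the 10 genes, 9 of its 19 pooled peaks, on the X chromosome (1941940 to 2007956, plus strand). Only 9 protein-coding genes, Hr4 included, had at least 9 optimal summits in their window. Hr4 encodes an orphan nuclear receptor that takes part in timing metamorphosis. The strongest peak (1951804 to 1952057, signal 491) lay in the second intron, 9985 bp downstream of the first promoter, and ranked 243, 208 and 291 (247 ± 41.7, SD, n = 3). The peak with adjoining E-boxes (signal 375) ranked 450, 334 and 718, and a peak of signal 368 in the third intron ranked 384, 661 and 526. All 3 replicates thus placed these peaks high in their lists.

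The remaining 6 Hr4 peaks had signals from 136 to 268. The second intron alone held 6 of the 9, between 1.82 and 11.2 kb from the first start, and the closest pair of summits was 641 bp apart. Of these, the peak of signal 199 ranked 1592, 1289 and 1200, and a pair of signal 205 each ranked 920, 2227 and 2222 (summit 1948689) and 1589, 1951 and 1151 (summit 1953129, the one with 3 E-boxes). The pseudogene CR46447 starts nearby, and 4 of the 9 summits were nearer to its start than to one of Hr4. The strongest Hr4 peak outside the optimal list had a signal of 85.6. A peak of signal 253 lay in the fifth intron, 42.4 kb from the first start, and ranked 1043, 1064 and 763. The peak counted upstream (signal 268; ranks 950, 1077 and 708) had its summit 1763 bp before the Hr4 start and 130 bp from that of CG3587, much nearer to this neighbour. No pooled summit lay within 500 bp of either Hr4 promoter. Ranks in all 3 replicates were in the top peaks for 8 of the 9; the weakest, of signal 136, ranked 3003, 4451 and 1589.

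By number of peaks, the genes most like Hr4 were jvl, toc and CG33158. They were the nearest of 156 genes within 20% of its window length of 68.0 kb, by the summed difference in optimal and pooled counts. Each had 3 optimal peaks, with 19, 19 and 18 pooled ones, so they matched Hr4 in pooled counts and had fewer optimal peaks. None of the 156 had a summed difference below 6.

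Hr3, an orphan receptor that represses early genes and activates ftz-f1 (2R, 10203995 to 10237348, minus strand), held the strongest peak of the whole group. This peak (10219902 to 10220261, signal 645) was the 129th of the pooled list, and it lay in the first intron of the longest transcript, 7905 bp downstream of the third promoter. Its ranks of 134, 123 and 155 (137 ± 16.3, SD, n = 3) were close in all replicates. The other 2 optimal peaks (signals 188 and 131) lay in the same intron, 2905 bp upstream and 2080 bp downstream of the third promoter, and ranked 1432, 1655 and 1625 (signal 188) and 3812, 2250 and 2528 (signal 131). The strongest remaining Hr3 peak had a signal of 72.4. CG46321 is annotated from the same start as that promoter, so these summits are equally far from both genes there. None of the 3 Hr3 promoters had a pooled summit within 500 bp.

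Eip78C, an orphan receptor related to Eip75B, had no optimal peak among its 8 pooled peaks. The strongest (3L, 21251233 to 21251652, signal 69.1) lay in the third intron, 11096 bp from the nearest own start and 6577 bp from that of CG43218. It ranked 7723, 5428 and 6359 (6503 ± 1154, SD, n = 3). No top peak of any replicate fell in its window. At the third of its promoters lay a pooled peak of signal 62.0.

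The competence factor ftz-f1 (3L, 18750607 to 18801309, minus strand) had 5 optimal peaks among 23 pooled ones, all 5 in the second intron of its longest transcript. Their signals were 158, 151, 123, 103 and 94.1, against the median of 154 over all optimal peaks, the last of them near the lowest optimal signal of 92.7, and the strongest peak outside the optimal list had 72.4. Of the 5, 4 lay 9.66 to 16.6 kb downstream of the first start, with gaps of 1793 to 3046 bp between neighbours, and the fifth lay 3748 bp upstream of the second promoter. The strongest ranked 2770, 1384 and 2445 (2199.7 ± 725, SD, n = 3), the next 2565, 2416 and 2217, and the peak of signal 123, which held 3 E-boxes, 2803, 3873 and 2235. These 3 were in the top peaks of every replicate. Ranks of the peak of signal 103 differed most of all 27, at 3590, 8387 and 2221 (4733 ± 3238, SD, n = 3), so it was outside the top peaks of replicate 2. The peak of signal 94.1 was outside those of replicate 3, with ranks of 3761, 3166 and 5022.

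Hr39, a receptor closely related to Ftz-F1 (2L, 21237250 to 21259675, plus strand), had its 1 optimal peak at its only promoter. The summit (peak 21236998 to 21237417, signal 122) lay 42 bp upstream of the start and 475 bp from that of CG31626. It ranked 2003, 6128 and 3303 (3811 ± 2109, SD, n = 3), outside the top peaks of replicate 2. Its 6 other pooled peaks reached at most 50.9.

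The share of peaks with an E-box was close to that of the whole optimal list. Within 100 bp of the summit, 17 of the 27 optimal peaks (63.0%, 95% Wilson interval 44.2 to 78.5%) held CANNTG on either strand, against 62.1% of all 4246 optimal peaks and 62.0% of the 1660 optimal peaks over 500 bp from any start. The peaks with an E-box were 6 of 9 at Hr4, 3 of 5 at Eip75B, 2 of 5 at ftz-f1, 2 of 3 at Hr3, 2 of 2 at EcR, and those of usp and br, the br match lying beyond the 50 bp printed above. CAGCTG, the E-box form that is also counted in CANNTG, was present at 2 peaks, the EcR peak of signal 104 and the Hr4 peak with 3 E-boxes printed above (7.41%, against 11.2% of all and 6.51% of distal optimal peaks). AGGTCA was present at 1 Hr4 peak, that of signal 136 (3.70%, against 4.26% of all optimal peaks). GAGAG was found at 8 peaks (29.6%, 15.9 to 48.5%), against 21.5% of all and 24.9% of distal optimal peaks.

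The promoter motif of DREF (TATCGATA) and that of M1BP (GGTCACACT) were found at 0 of the 27 (95% Wilson interval 0 to 12.5% for each). They were present at 5.79% and 2.80% of all optimal peaks, and at 0.482% and 0.0602% of the distal ones. ATGGCGCC was present at 3 of the 27 (11.1%, 95% Wilson interval 3.85 to 28.1%), the Eip75B peaks of signal 191 and 112 and the Hr4 peak with CAGCTG. Its share was 0.966% of all optimal and 1.20% of distal optimal peaks. CCCTAATA was present at the br peak and the strongest ftz-f1 peak (7.41%, against 0.565% of all optimal peaks). Because both sequences were picked from these very peaks, their high shares here were fixed by the choice. A match describes the letters in a window and is no measurement of binding.

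The 5 further lists of pathway genes differ in gene length, and no difference between them was tested. Over all protein-coding genes, 22.5% of those with a window under 5 kb had an optimal peak, against 39.7% at 5 to 10 kb, 46.2% at 10 to 20 kb, 51.1% at 20 to 40 kb, 52.1% at 40 to 80 kb and 59.7% above. Of the 9 genes of synthesis and turnover, 6 had no pooled summit and 0 had an optimal one, and 5 of the 9 windows were under 5 kb. The strongest pooled peak in that list was at shd (signal 82.8), which encodes the enzyme that makes the active hormone. All 8 genes of hormone import, membrane reception and coregulation had an optimal peak. Their windows ran from 5.56 to 85.4 kb, so the shares of 39.7 to 59.7% for such lengths are the background, and not the 30.6% of all genes. These were Smr, a corepressor gene (strongest signal 459, intronic), Alien (284), trr (153), DopEcR, a membrane receptor gene (150), E(bx) (131), bon (123), tai, the gene of a receptor coactivator (109), and Oatp74D, the ecdysone importer gene (108). At Alien and trr the summit was nearer to the start of a neighbour, 53 bp from CG18661 and 98 bp from mRpL16, and at Smr a noncoding RNA gene started 4755 bp away, nearer than Smr itself.

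Of 20 other early and early-late targets, 11 had an optimal peak, against 30.6% of all protein-coding genes. All 11 were among the 14 with a window over 5 kb, where the shares by length were 39.7 to 59.7%. E23, which encodes an ABC transporter that dampens the ecdysone response, had the strongest one (signal 654, 198 bp from its start, ranks 157, 141 and 103) and 5 optimal among 6 pooled peaks in 22.0 kb. The others were Eip63F-1 (439), Eip63E (351, with 5 optimal peaks), ImpL2 (322), Ldh (321), the cell death gene hid (259), vri (147), Hr38 (143), Eip93F (110.1), crol (102) and Hr78 (94.97). The summit of Hr78 lay in no peak of replicate 2. Kr-h1, Blimp-1, Eip71CD, Eip55E and ImpE3 had pooled peaks only, and rpr, ImpE1, ImpE2 and ImpL1 had none.

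Late tissue targets, the glue, fat body and storage protein genes, had an optimal peak at 0 of 8 and a pooled peak at 1, Sgs7. Their windows were 2.39 to 5.46 kb long, and 22.5% of all genes under 5 kb had an optimal peak, so a count of 0 among 8 says little. Of 13 other nuclear receptor genes, 5 had an optimal peak, against 30.6% of all genes, and 11 of the 13 windows were over 5 kb. The 5 were Hr96 (593, 88 bp from the start of EMC6), ERR (344, 40 bp from that of Atg18a), Hr38, Hnf4 (106) and Hr78. These peaks at Hr96 and ERR lay nearer to the neighbour's start than to their own, as did 8 of the 27 peaks of the 10 genes. Over all 5 lists, 22 of 56 distinct genes had an optimal and 37 a pooled summit, against 30.6% and 67.3% of all protein-coding genes. Those background shares are not matched for window length. Of all genes with windows under 5 kb, 22.5% had an optimal and 55.1% a pooled summit. In the longer length classes the shares were 39.7 to 59.7% and 81.9 to 97.7%. No share matched to the lengths in these lists was formed, and no difference was tested.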

How the data were processed

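Chromatin from 3 biological replicates of whole embryos was immunoprecipitated and sequenced. The authors deposited peak lists on dm6 with a signal value per peak, which is the unit used here; the aligner, the peak caller and the signal's scaling were not found in any label or header, and read depth is unknown. Every list was called against a control, per the records deposited with the samples. The 5 dm6 lists were used (pooled, optimal and 3 replicate lists), and the dm3 lists were not. Genes and starts were taken from Ensembl release 115 and sequence from the RefSeq release 6 genome. Summits were assigned to gene bodies plus 2 kb upstream, and starts under 100 bp apart were merged into promoters. A pooled peak took the rank of the strongest replicate peak that held its summit. Named were every optimal peak of the 10 members, the strongest other pooled peak of each, pathway genes with an optimal peak, and the 3 genes most like Hr4 in peak counts. Neighbours with a start within 500 bp or nearer than an own start were named for the members' optimal peaks. For weaker pooled peaks and pathway genes, neighbours were not always named. Members and lists were chosen with earlier results of these data known. With 1 group, no test between groups was made. Scripts ran on Python 3.11.15, numpy 2.4.6, scipy 1.17.1 and matplotlib 3.10.9, and were tested on simulated data.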

Additional observations from a re-analysis of the deposited data

How the results depend on the processing

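Of 33 alternative values, 31 stayed within 1.5 times the reported count. With only optimal peaks at or above the median optimal signal, the 10 genes had 16 optimal peaks in place of 27, as this keeps fewer peaks by construction. With 50 bp on each side of the summit in place of 100 bp, 9 of the 27 peaks held an E-box in place of 17, since the window is shorter. Leaving out each replicate in turn left 22 to 25 of the 27 peaks in the top peaks of all those remaining. With 2 kb upstream replaced by the gene body alone, 25 optimal peaks at 7 genes were counted, and with 5 kb upstream 29 at 9 genes, the added gene being Eip74EF through the peaks at the starts of Vps60 and anchor. No paired analysis was possible because there was 1 group only. Peak lists carry no read counts, so weak sites at Eip74EF and Eip78C cannot be told from sites below the depth of these libraries.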
